A study of Mus musculus with 2 samples.

Results

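The Cdkn1a-high spots were 347 of the 3469 spots of the HFD liver section that held at least 5000 UMIs, out of 3594 spots over tissue in that section and 7286 in both sections of the ST data. A spot is a small printed capture area that usually covers several cells, and a UMI stands for 1 captured mRNA molecule. Spots were ranked by their Cdkn1a UMIs divided by all their UMIs, the 10% with the highest share were taken as Cdkn1a-high, and they were set against the 1522 spots in which no Cdkn1a UMI was found. The 1600 spots in between held Cdkn1a UMIs but lay outside the top 10%, and they are called middle spots. Since the spots were chosen on Cdkn1a, their Cdkn1a level is a description, and the comparison concerns the other genes.

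Both sections came from male C57BL/6J mice bought at 5 weeks of age, acclimated for 1 week, kept for 14 weeks on NCD or HFD and then gavaged daily with distilled water for 8 weeks on the same diet. Livers were cut frozen at 10 µm, and each diet is represented by 1 section of 1 mouse. No test between animals can therefore be made, no p-value is given, and the spots are not replicates of a diet. Intervals are exact, at the 95% level, and describe counting error alone, so that neither the variation from spot to spot nor that between animals is in them.

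Cdkn1a encodes p21, an inhibitor of cyclin-dependent kinases that holds cells in G1 phase. It is a classical target of the tumour suppressor p53, is also induced by other stress and growth factor pathways, and is widely used as a marker of cell cycle arrest and senescence. In the liver it is known to rise in hepatocytes after injury and in steatosis. The gene (ENSMUSG00000023067) lies on the plus strand of chr17:29090976-29100727 in GRCm38.

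Over all spots with at least 5000 UMIs, Cdkn1a stood at 46.3 CPM (Cdkn1a UMIs per 1000000 UMIs of any gene) on HFD and at 2.03 CPM on NCD, which is a log2 difference of 4.51 (4.12 to 4.94) between 2 single sections. A Cdkn1a UMI was found in 56.1% of these HFD spots and in 3.07% of these NCD spots, at median depths of 19052 and 12036 UMIs, and after every spot was thinned to 5000 UMIs the shares were 20.9% and 0.767%. Outside the tissue of the HFD section Cdkn1a was still measured at 31.7 CPM (24.7 to 40.1), with a UMI in 4.65% of 1398 spots at a median depth of 1175.5 UMIs. The part of RNA from outside a spot in the choice of spots was not tested. The labels name haematopoietic stem cells and immune cells, whereas 8 hepatocyte genes (Alb, Apoa1, Ttr and others) made up 137529 CPM of the HFD spots, so the spots are treated here as liver tissue. Of the array positions over tissue, 3173 had the same barcode in both sections, as the printed slides share 1 set of barcodes.

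In the Cdkn1a-high spots, 937 Cdkn1a UMIs among 5807164 UMIs gave a pooled level of 161 CPM (151 to 172), against 60.5 CPM (58.1 to 63.0) in middle spots. Single high spots ranged from 119.839 to 505 CPM with a median of 153 CPM. These levels rested on few molecules. Of these spots, 61 held 1 Cdkn1a UMI, 115 held 2, 88 held 3 and 83 held 4 or more, with 10 UMIs as the most in a spot. The spot at the top of the ranking had 3 Cdkn1a UMIs among 5940, and the spot with 10 UMIs held 26762. The last spot inside the group had 2 Cdkn1a UMIs among 16689 (119.839 CPM), and the first one outside had 4 among 33381 (119.829 CPM).

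**Figure D1:**
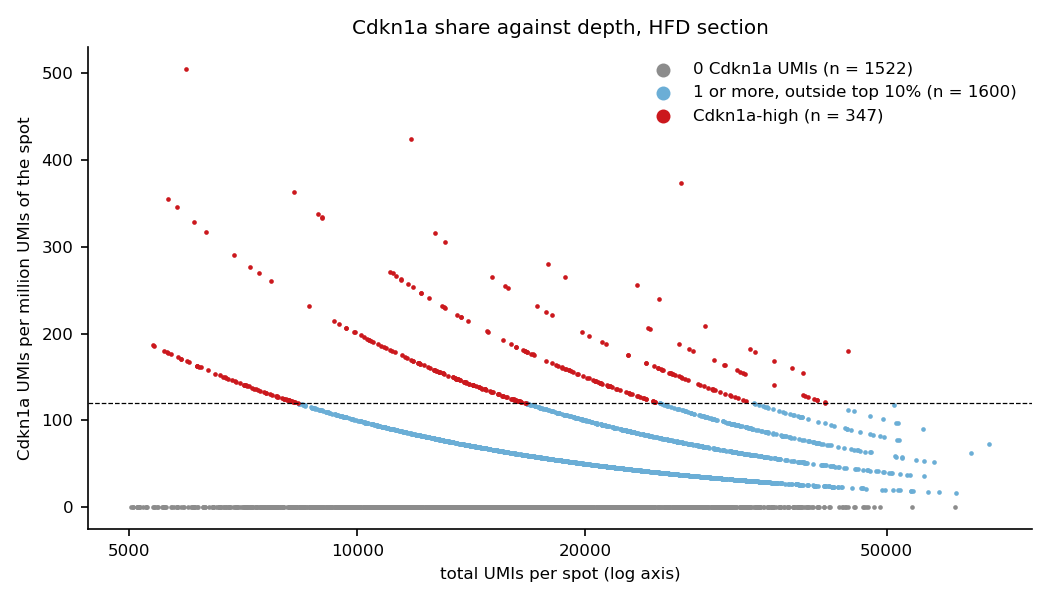
Each point is a spot of the HFD section with at least 5000 UMIs, with its total UMIs on a log axis and its Cdkn1a UMIs per 1000000 UMIs on the vertical axis. The curved bands are spots with 1, 2, 3 and more Cdkn1a UMIs, and the dashed line marks the lowest share among the 347 Cdkn1a-high spots, 119.839 CPM.

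With so few molecules per spot, depth entered the ranking. A single UMI was enough in spots of at most 8343 UMIs, and the high spots had a median of 14815 UMIs, against 15701 in the spots with 0 and 23202 in the middle spots. When the spots were ordered by depth and cut into 10 equal classes, 21.6% (17.4 to 26.3) of the shallowest class were Cdkn1a-high, which was 75 spots, and 3.76% (2.02 to 6.34) of the deepest, which was 13. The pooled Cdkn1a level showed no such slope and lay between 43.1 and 52.8 CPM in all 10 classes, with overlapping intervals.

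To ask how much of the difference belongs to the spots themselves, the UMIs of each spot were divided at random into 2 equal parts. The 347 spots that ranked highest on the first part (212 CPM there) had 60.2 CPM (51.5 to 70.0) of Cdkn1a in the second part, and the 2232 spots with 0 in the first part had 43.0 CPM (40.3 to 45.9). The remaining difference was 1.40-fold (1.18 to 1.65). A Cdkn1a UMI was seen in the second part in 34.0% (29.0 to 39.3) of the former and 31.8% (29.9 to 33.8) of the latter spots, at median depths of 6433 and 8493 UMIs. When every spot was thinned to 5000 UMIs, 125 of the 347 Cdkn1a-high spots (36.0%) had no Cdkn1a UMI left, and the 10% chosen again on thinned counts shared 139 spots (40.1%) with the original group. The difference that remained in spots chosen on one part of their UMIs was thus much smaller than the ranking shows. Values given below for molecules not used for the choice come from these spots, which are not the same set as the 347 chosen on all UMIs.

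**Figure D2:**
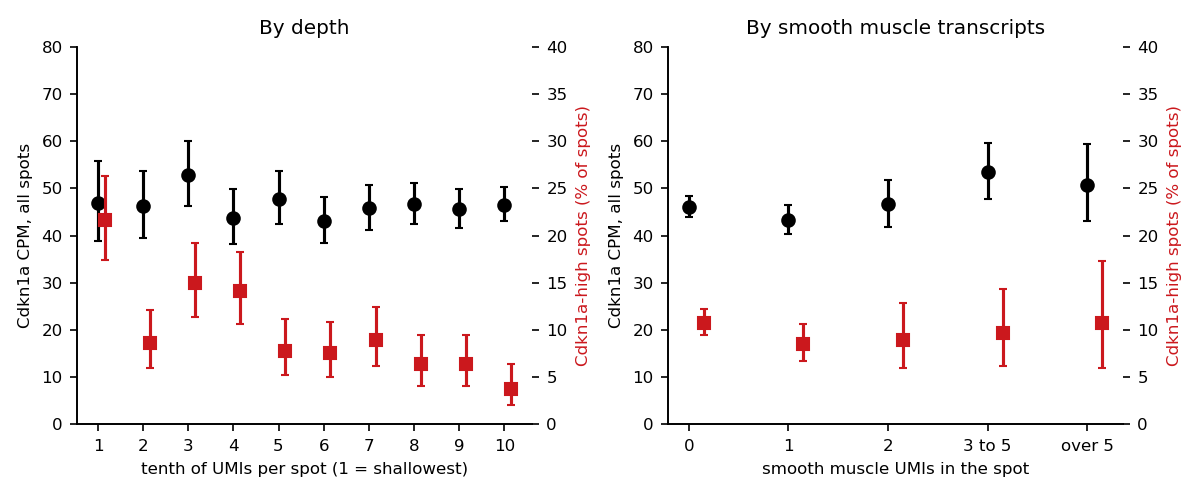
Black circles give the pooled Cdkn1a CPM of all spots with at least 5000 UMIs and red squares the percent of spots that are Cdkn1a-high, with exact 95% intervals, by 10 classes of depth on the left and by the number of smooth muscle UMIs in the spot on the right. The red share runs from 21.6% in the shallowest to 3.76% in the deepest class, while the black level stays between 43.1 and 52.8 CPM.

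The other genes of the high spots were close to those of the spots with 0 Cdkn1a UMIs. Of 8058 genes with at least 200 UMIs over both groups, 219 (2.72%) were past the fold upward, meaning a log2 ratio of at least 0.32 with an interval above 0, and 76 (0.943%) were past it downward, 3.66% in either direction. With counting error alone, a 95% interval falls wholly above 0, and likewise below it, in up to 2.5% of genes that do not differ. Variation between spots, which the intervals do not hold, adds to that share, and the required fold lowers it for abundant genes. The median log2 ratio of all tested genes was 0.02. Among the 3173 genes with at least 1000 UMIs, 12 were past the fold upward and 3 downward. Thinned to 5000 UMIs, 98 of 4145 genes were higher and 41 lower. The thinned counts could test 29 of the 219 higher genes, of which 19 were again past the fold, and 12 of the 76 lower genes, of which 4 were. These counts are a part of the same molecules in the same spots. With groups chosen on one random part of the UMIs and values from the other, 168 of the higher genes could be tested. Of these, 28 were again past the fold upward. Among the lower genes 60 could be tested there, and 4 were again past it downward. Of all 7066 genes tested in that setting, 134 (1.90%) were past the fold upward and 77 (1.09%) downward. The 219 and 76 genes were called on all UMIs, including those of the second part, so their return is partly built in.

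The major hepatocyte transcripts differed little. The 8 hepatocyte genes summed to 134205 CPM in Cdkn1a-high spots and 137284 CPM in spots with 0, a log2 ratio of -0.03 (-0.04 to -0.03), and mitochondrial genes took 5.75% and 5.74% of UMIs.

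Genes of the p53 pathway stood at nearly the same level. p53 is a transcription factor that is stabilised by DNA damage and other stress and that activates genes for cell cycle arrest, DNA repair and apoptosis beside Cdkn1a. The 26 p53 targets together stood at 564 CPM in Cdkn1a-high spots, 554 CPM in spots with 0 and 555 CPM in middle spots, a log2 ratio of high over 0 of 0.03 (-0.03 to 0.08), and -0.00 (-0.10 to 0.10) after thinning. From spot to spot the list ran from 0 to 1342 CPM in high spots with a median of 556 CPM, and from 0 to 1668 CPM in spots with 0 with a median of 542 CPM. The spots of both groups overlapped over the whole range. Of the 14 targets with enough UMIs, 1 was past the fold upward and none downward, beside 2.72% and 0.943% of all tested genes, and their median log2 ratio was 0.06.

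Among feedback regulators of p53, Mdm2, the ubiquitin ligase that degrades p53, stood at 18.9 CPM in high spots and 18.2 CPM in spots with 0 (log2 ratio 0.06, -0.25 to 0.36). Ccng1, cyclin G1, stood at 41.7 and 40.7 CPM (0.04, -0.17 to 0.24). Trp53inp1, a nuclear and autophagy-linked p53 target, stood at 82.3 and 78.7 CPM (0.06, -0.08 to 0.21). All 3 intervals contained 0 and ended short of a 1.5-fold difference. They hold counting error alone, so they do not exclude a difference of that size. For scale, Cdkn1a itself differed 1.40-fold (1.18 to 1.65) on molecules not used for the choice.

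Of the apoptotic targets, Bax, which opens the outer mitochondrial membrane, had a log2 ratio of 0.09 (-0.11 to 0.28). The death receptor Fas had 0.10 (-0.15 to 0.34), and Perp, a membrane protein of cell junctions, had 0.01 (-0.11 to 0.14). Bbc3, the BH3-only protein PUMA, had 53 UMIs in high spots and a ratio of 0.42 (-0.05 to 0.87). Aen, an exonuclease, had -0.11 (-0.46 to 0.22), and Ei24, an autophagy-linked membrane protein with the most UMIs of the list, had -0.10 (-0.21 to 0.02).

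The target past the fold was Phlda3, an inhibitor of Akt signalling, at 9.47 CPM from 55 UMIs in high spots and 6.78 CPM in spots with 0 (0.48, 0.02 to 0.92). The other growth and repair targets had intervals across 0. They were the antiproliferative gene Btg2 (0.25, -0.03 to 0.51), the sestrins Sesn1 (0.19, -0.31 to 0.67) and Sesn2 (-0.28, -0.86 to 0.26), and the repair gene Xpc (-0.08, -0.47 to 0.30). The remaining 12 members had under 200 UMIs over both groups and were not tested one by one.

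Genes that work with p21 in the cell cycle gave similar values. The 10 partners of p21 (cyclins, their kinases and Pcna) had a summed log2 ratio of -0.06 (-0.16 to 0.04), with 0 of 6 tested members past the fold. Cyclin D1, Ccnd1, the main hepatocyte D cyclin, stood at 41.5 CPM in high spots and 41.1 CPM in spots with 0 (0.01, -0.19 to 0.22). The kinase gene Cdk4 had -0.12 (-0.36 to 0.11), Pcna, the replication clamp that p21 binds, had 0.11 (-0.12 to 0.33), and Ccnd3 had -0.29 (-0.53 to -0.06) without reaching the fold. The 17 proliferation genes together had 0.04 (-0.11 to 0.18) at 82.1 and 79.9 CPM, with 2 members tested and none past the fold.

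The other CDK inhibitors were scarce, at 20.1 CPM together in high spots and 20.9 CPM in spots with 0 (-0.05, -0.35 to 0.24). Cdkn2a, which encodes the senescence markers p16 and p19, had 3 UMIs in high spots and 8 in spots with 0, a log2 ratio of 0.78 with an interval from -1.77 to 2.84. A difference in Cdkn2a within these bounds was not detectable at this depth.

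Secreted factors of senescent cells were slightly higher as a list, at 360 and 321 CPM (0.16, 0.09 to 0.23), and at 369 CPM in middle spots. After thinning the value was 0.10 (-0.03 to 0.24), and on molecules not used for the choice the sign turned (-0.08, -0.18 to 0.03). Of 9 tested members 1 was past the fold, beside 2.72% of all tested genes upward. That member was Mmp12, a macrophage metalloproteinase, at 27.9 CPM in high spots and 20.3 CPM in spots with 0 (0.46, 0.20 to 0.72). Without the 10% of spots richest in other cell types, by the summed share of their markers, Mmp12 had 0.02. The markers include Mmp12 itself. For it and for the lists of these cell types below, a ratio nearer 0 after this removal is partly built in. Spp1, osteopontin, had 0.17 (0.07 to 0.27) and was higher still in middle spots (209 CPM, against 177 CPM in high spots and 157 CPM in spots with 0). Cxcl10, Igfbp3 and Vegfa had log2 ratios of 0.25, 0.25 and -0.05 with intervals across 0. Il6 had 0 UMIs in both groups, which allows up to 0.517 CPM in high spots at 3 UMIs.

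The epithelial injury genes were the list of parenchymal genes furthest above 0. These are genes that hepatocytes and cholangiocytes are known to express under damage, such as keratins, annexins and S100 proteins. Their sum was 1537 CPM in Cdkn1a-high spots, 1357 CPM in spots with 0 and 1440 CPM in middle spots, a log2 ratio of high over 0 of 0.18 (0.15 to 0.21). From spot to spot the sum ran from 423 to 6162 CPM in high spots with a median of 1374 CPM, and from 175 to 8991 CPM in spots with 0 with a median of 1250.0 CPM, so the groups overlapped widely. All 10 tested members had a ratio above 0, beside 4586 of all 8058 tested genes. Of these 10, 1 was past the fold, beside 2.72% of all tested genes upward. In each of 5 classes of depth the high spots were above the spots with 0, from 1433 and 1354 CPM in the shallowest to 1771 and 1479 CPM in the deepest, with intervals that did not overlap in the 3 deepest.

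By gene, the keratin Krt8 stood at 413 CPM in high spots and 379 CPM in spots with 0 (0.12, 0.06 to 0.19), its partner Krt18 at 221 and 200.5 CPM (0.14, 0.05 to 0.23), the phospholipid-binding annexin Anxa5 at 274 and 244 CPM (0.16, 0.08 to 0.24), and the iron-carrier-binding lipocalin Lcn2 at 183 and 161 CPM (0.19, 0.09 to 0.28). S100a6, a calcium-binding protein of the list, was past the fold at 52.9 and 34.2 CPM (0.63, 0.44 to 0.82), with 32.0 CPM in middle spots. Without the 10% of spots richest in other cell types S100a6 had -0.08 (-0.39 to 0.21), Krt8 0.11 (0.04 to 0.18), Anxa5 0.14 (0.05 to 0.22), Lcn2 0.19 (0.08 to 0.29) and the whole list 0.14 (0.10 to 0.17). The ratio of the list was smaller after thinning, at 0.12 (0.05 to 0.18), and on molecules not used for the choice, at 0.07 (0.02 to 0.12). It was 0.03 (-0.03 to 0.09) when spots were chosen again after thinning.

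Stress genes outside p53 differed little. The amino acid stress response, which is driven by Atf4, had 0.01 (-0.04 to 0.06) over 16 genes, with Atf4 at 0.12 (-0.04 to 0.28), Atf5 at 0.02 (-0.07 to 0.12) and the secreted stress hormone Gdf15 at 0.22 (0.05 to 0.38). The transcription factor gene Atf3 was past the fold (12.7 and 8.74 CPM, 0.54, 0.15 to 0.93) but had -0.23 and 1.00 after 2 random thinnings and -0.69 on molecules not used for the choice. ER chaperones had -0.01 (-0.03 to 0.01). Immediate early genes had 0.13 (0.08 to 0.18), with 1 of 13 tested members past the fold, beside 2.72% of all tested genes upward. That member was the transcription factor gene Klf6 at 25.7 and 17.6 CPM (0.54, 0.26 to 0.81), with 0.09 after thinning. On molecules not used for the choice the immediate early list had 0.05 (-0.02 to 0.13).

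Transcripts of vessel walls were among the highest ratios of the named genes and lists. The 5 smooth muscle genes stood at 93.0 CPM in Cdkn1a-high spots, 59.9 CPM in spots with 0 and 55.9 CPM in middle spots. The log2 ratio of high over 0 was 0.63 (0.49 to 0.78). Of these genes 3 of 3 tested members were past the fold, beside 2.72% of all tested genes upward. Acta2, smooth muscle actin, is counted here with the stellate genes, since activated stellate cells express it too, and is not part of this sum. It had 257 UMIs in high spots (44.3 CPM) and 709 in spots with 0 (26.7 CPM), a ratio of 0.73 (0.52 to 0.94). Of the 5 genes, Myl9, a myosin light chain, had 0.67 (0.41 to 0.94), the actin-binding protein gene Tagln 0.49 (0.27 to 0.70) and the smooth muscle myosin gene Myh11 0.94 (0.47 to 1.38). Mgp, an inhibitor of vessel calcification, stood at 44.4 and 28.3 CPM (0.65, 0.44 to 0.86).

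These muscle transcripts sat in few spots. A smooth muscle UMI was found in 38.0% of high spots and 37.3% of spots with 0, and the median spot of either group held none. The richest spot reached 4457 CPM among high spots and 5968 CPM among spots with 0. The 3 high spots with the most held 192 of the group's 540 smooth muscle UMIs (35.6%), namely 87, 55 and 50, and each of them had 3 Cdkn1a UMIs among 19522, 12929 and 16752 UMIs. The same 3 spots held the most Acta2. Without them the log2 ratio of the 5 genes was 0.01 (-0.16 to 0.18), a removal made in the high group alone. Leaving out the 1% of spots with the most smooth muscle UMIs in both groups gave 0.43 (0.25 to 0.61), and leaving out the 10% of spots richest in other cell types gave 0.01 (-0.24 to 0.24). With no spots left out, the 5 genes had 0.68 (0.42 to 0.92) and 0.45 (0.19 to 0.70) after separate random thinnings. They had 0.70 (0.46 to 0.92) with spots chosen again after thinning. Molecules not used for the choice gave 0.38 (0.16 to 0.59) for the 5 genes and 0.56 (0.25 to 0.85) for Acta2.

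Taken by their smooth muscle UMIs, the spots richest in muscle and those without it had Cdkn1a levels with overlapping intervals. Cdkn1a stood at 46.1 CPM (43.9 to 48.3) in spots without a smooth muscle UMI, 43.4 CPM (40.4 to 46.5) in spots with 1, 53.5 CPM (47.8 to 59.6) in spots with 3 to 5, and 50.8 CPM (43.1 to 59.4) in the 131 spots with more than 5. Of those 131 spots 14 were Cdkn1a-high (10.7%, 6.0 to 17.3), against 10.8% (9.4 to 12.2) of spots with none. These 14 spots held 63.0% of the smooth muscle UMIs of the Cdkn1a-high group.

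Ccl21a, a chemokine of lymphatic vessels and lymphoid stroma, had the highest ratio of all named genes, at 30.0 CPM in high spots, 15.2 CPM in spots with 0 and 10.2 CPM in middle spots (0.98, 0.72 to 1.24). One spot held 40 of its 174 UMIs in the high group, and the same spot was among the 3 richest in smooth muscle. A UMI of Ccl21a was found in 8.93% of high spots and 7.49% of spots with 0, and without the 10% of spots richest in other cell types the ratio was 0.15 (-0.47 to 0.73). Ccl21a has near-identical copies in the genome, so its reads may be split among them.

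**Figure D3:**
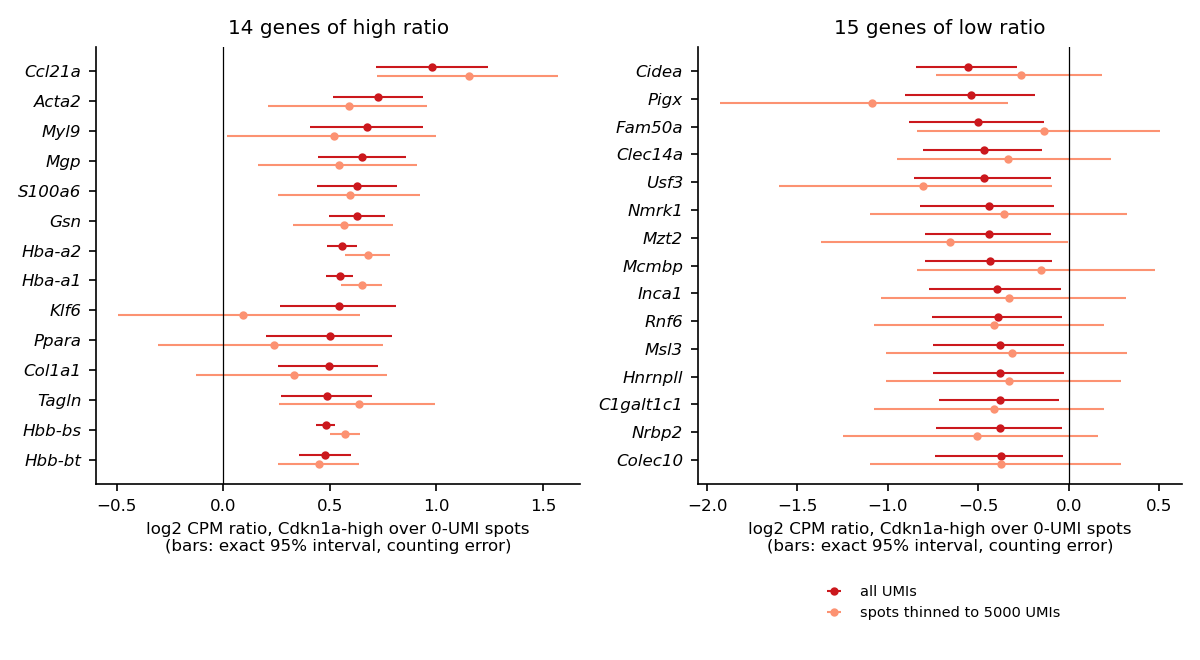
Genes shown are 14 of highest and 15 of lowest ratio that had 500 or more UMIs and the same direction after thinning (seed 1) and on molecules not used for the choice, and points give the log2 CPM ratio of Cdkn1a-high spots over spots with 0 Cdkn1a UMIs and bars its exact 95% interval, with all UMIs in dark red and after thinning to 5000 UMIs (seed 1) in light red. Ratios of all UMIs run from 0.98 for Ccl21a to -0.56 for Cidea, and most thinned intervals of the lowest genes contain 0.

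Genes of the matrix-forming cells of the liver pointed the same way, with a smaller ratio for the list. Stellate cells store vitamin A in the healthy liver and lay down collagen when activated. The 12 stellate and fibrosis genes stood at 682 CPM in high spots, 591 CPM in spots with 0 and 621 CPM in middle spots (0.21, 0.16 to 0.26). Of the 12, 6 were past the fold upward, beside 2.72% of all tested genes. They were Acta2 (above), the collagen gene Col1a1 (34.4 and 24.5 CPM, 0.49, 0.26 to 0.72), the intermediate filament gene Des (0.70, 0.31 to 1.08), the matrix protease gene Mmp2 (0.55, 0.07 to 1.01), the proteoglycan gene Lum (0.40, 0.15 to 0.65) and Lrat, which esterifies retinol (0.41, 0.04 to 0.77). The high spots with 87 and 50 smooth muscle UMIs each held 14.1% of the Des UMIs of the group, so Des is not separate from the muscle-rich spots. The most abundant member, the proteoglycan gene Dcn, had 0.09 (0.02 to 0.17), and Col3a1 had 0.20 (0.06 to 0.33). Without the 10% of spots richest in other cell types, chosen on markers that include this list, the list had 0.05 (-0.01 to 0.11), and Col1a1 had 0.44 (0.13 to 0.73). With the original choice of spots the list had 0.22 (0.13 to 0.32) after thinning. The list had 0.19 (0.12 to 0.26) on molecules not used for the choice, where Col1a1 had 0.37 (0.05 to 0.68). When spots were chosen again after thinning the list had 0.05 (-0.04 to 0.14), and Col1a1 turned to -0.22 (-0.70 to 0.23).

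Gsn, the actin-severing protein gelsolin, stood at 110 CPM in high spots, 71.0 CPM in spots with 0 and 81.0 CPM in middle spots (0.63, 0.50 to 0.76). It had 0.18 (-0.02 to 0.37) without the 10% of spots richest in other cell types and 0.13 (-0.08 to 0.33) on molecules not used to choose the spots. Ppara, the nuclear receptor of fatty acid oxidation, was spread more evenly, with at most 3 UMIs in any high spot. It was found in 30.3% of high spots and 22.9% of spots with 0 (0.50, 0.20 to 0.79), and its thinned ratio was 0.24 (-0.31 to 0.75). The direction of Ppara turned when spots were chosen again after thinning (-0.49, -1.17 to 0.13) and in middle spots against spots with 0 (-0.17). It was kept without the 10% of spots richest in other cell types (0.51, 0.20 to 0.82). On molecules not used for the choice Ppara had 0.54 (0.12 to 0.93). The genes of highest ratio were named only if they kept their direction there, so that sign was fixed by the rule. The same rule covered the values of Acta2, Col1a1 and Gsn on those molecules.

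Macrophage lists differed less. The 10 genes of lipid-associated macrophages, which gather at fat-laden and dying hepatocytes, stood at 783 and 716 CPM (0.13, 0.08 to 0.18). Of 9 tested members 2 were past the fold upward, beside 2.72% of all tested genes. They were Gpnmb, a lysosomal glycoprotein (0.41, 0.12 to 0.69), and Mmp12. Ctsd, the lysosomal protease with the most UMIs, had 0.08 (0.02 to 0.14), and the list had 0.01 (-0.04 to 0.07) without the 10% of spots richest in other cell types. General macrophage genes had 0.01 (-0.12 to 0.14). Kupffer cell genes, led by the complement genes C1qa, C1qb and C1qc, had 0.09 (0.04 to 0.15) with 0 of 6 tested members past the fold, and had -0.02 (-0.10 to 0.06) on molecules not used for the choice and 0.01 (-0.05 to 0.08) without the 10% of spots richest in other cell types. Endothelial genes had -0.02 (-0.10 to 0.06) and bile duct genes -0.06 (-0.19 to 0.07).

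Over all 76 markers of 13 lists of cells other than hepatocytes, the sum was 2633 CPM in Cdkn1a-high spots, 2407 CPM in spots with 0 and 2430 CPM in middle spots (0.13, 0.10 to 0.15). Of the 43 tested markers 11 were past the fold upward and 0 downward, where 2.72% of all tested genes were past it upward. The 10% of spots richest in these markers held 49 of the 347 high spots (14.1%) and 123 of the 1522 spots with 0 (8.1%). Without that 10% the sum differed by 0.01 (-0.02 to 0.04). The same markers chose the spots left out, so a smaller difference is partly built in. Pooled Cdkn1a stood at 53.6 CPM (48.4 to 59.2) in the 10% of spots richest in these markers. In the other classes of 10% it lay between 39.4 CPM (34.9 to 44.2) and 48.7 CPM (43.8 to 54.1), without a steady slope. In whole spots, more cells of a type and more RNA per cell cannot be told apart.

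**Figure D4:**
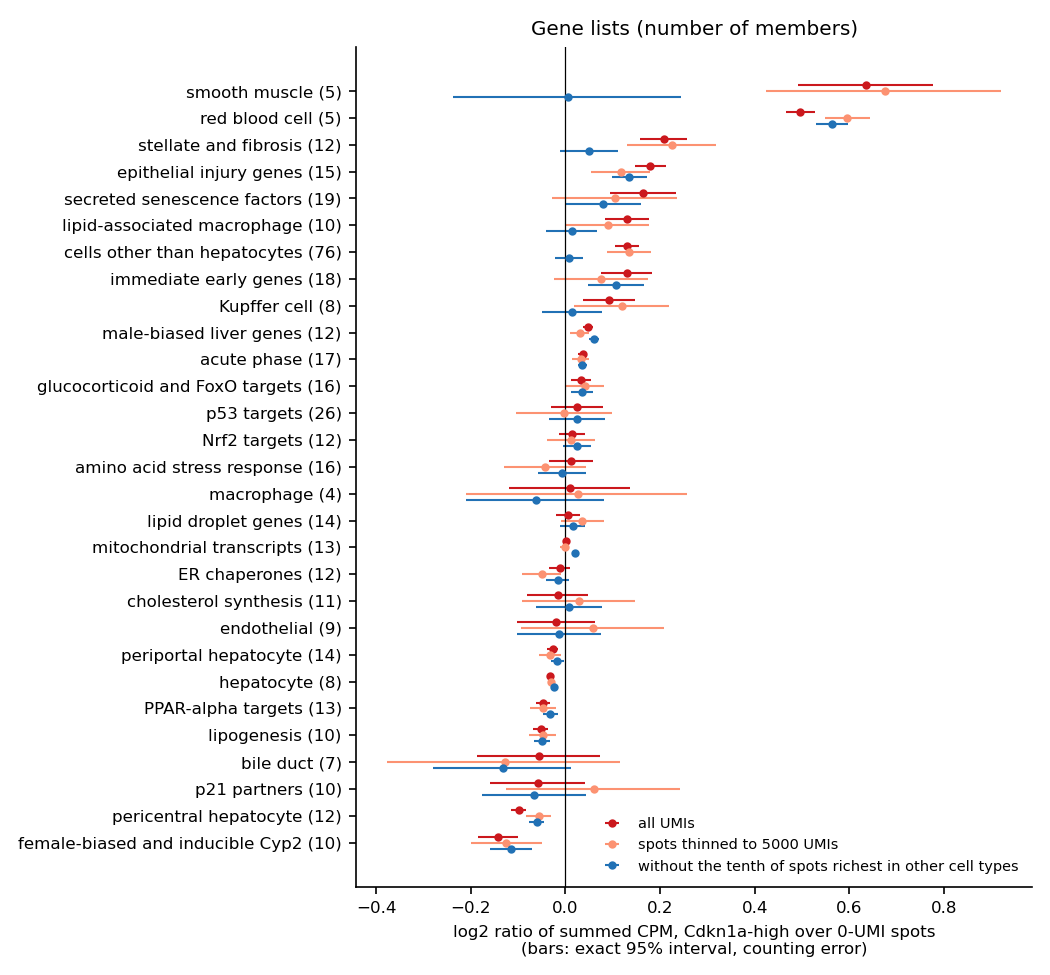
Points give the log2 ratio of the summed CPM of each list (members in parentheses) in Cdkn1a-high spots over spots with 0 Cdkn1a UMIs, with exact 95% intervals, for lists with at least 500 UMIs in the high spots. Red is all UMIs, light red after thinning to 5000 UMIs and blue without the 10% of spots richest in other cell types: smooth muscle goes from 0.63 to 0.01 in blue, red blood cell genes lie at 0.56, and p53 targets lie at 0.03 or less throughout. The spots left out in blue were chosen on markers that include the lists of these cell types.

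Globin transcripts were the second group with a large ratio. The 5 red blood cell genes stood at 1922 CPM in Cdkn1a-high spots, 1362 CPM in spots with 0 and 1083 CPM in middle spots (0.50, 0.47 to 0.53). The alpha-globin genes Hba-a1 and Hba-a2 had 0.55 and 0.56 and the beta-globin genes Hbb-bs and Hbb-bt 0.48 and 0.48, and within each pair the sequences are so alike that reads may be split between them. Alas2, the haem synthesis enzyme of red cell precursors, had -0.03 (-0.23 to 0.16).

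Globin UMIs were also uneven among spots and depths. Hba-a1 was found in 73.8% of high spots and 73.5% of spots with 0. One high spot of 12743 UMIs, with 2 Cdkn1a UMIs, held 1718 of the 11163 red blood cell UMIs of the group (15.4%), and without it, a removal made in the high group alone, the log2 ratio was 0.26 (0.23 to 0.29). Leaving out the 1% of spots richest in these genes in both groups gave 0.34 (0.31 to 0.38). On molecules not used for the choice the ratio was 0.25 (0.20 to 0.29), and with spots chosen again after thinning it was 0.16 (0.11 to 0.22). The level fell with depth in both groups, from 3752 CPM in high spots and 2719 CPM in spots with 0 in the shallowest of 5 depth classes to 478 and 669 CPM in the deepest, and the order was turned in the 2 deepest classes. Without the 10% of spots richest in globin, a removal made on the same genes, the ratio was 0.03. Cdkn1a itself stood at 48.6 CPM (43.1 to 54.6) in those spots and at 48.1 CPM in the 10% of spots with the least globin.

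The Cdkn1a-high spots thus varied widely among themselves. The 61 with a single Cdkn1a UMI had a median of 7122 UMIs and 5537 CPM of red blood cell genes, and the 83 with 4 or more had 27319 UMIs and 729 CPM. Smooth muscle genes stood at 167 CPM in the 88 spots with 3 Cdkn1a UMIs, which include the 3 spots above, and at 51.6 CPM in the 83 with 4 or more, below the 59.9 CPM of the spots with 0. Epithelial injury genes went from 1395 CPM (1285 to 1511) with 1 Cdkn1a UMI to 1641 CPM (1589 to 1694) with 4 or more. The p53 targets ranged from 546 to 576 CPM over these 4 subsets with overlapping intervals.

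**Figure D5:**
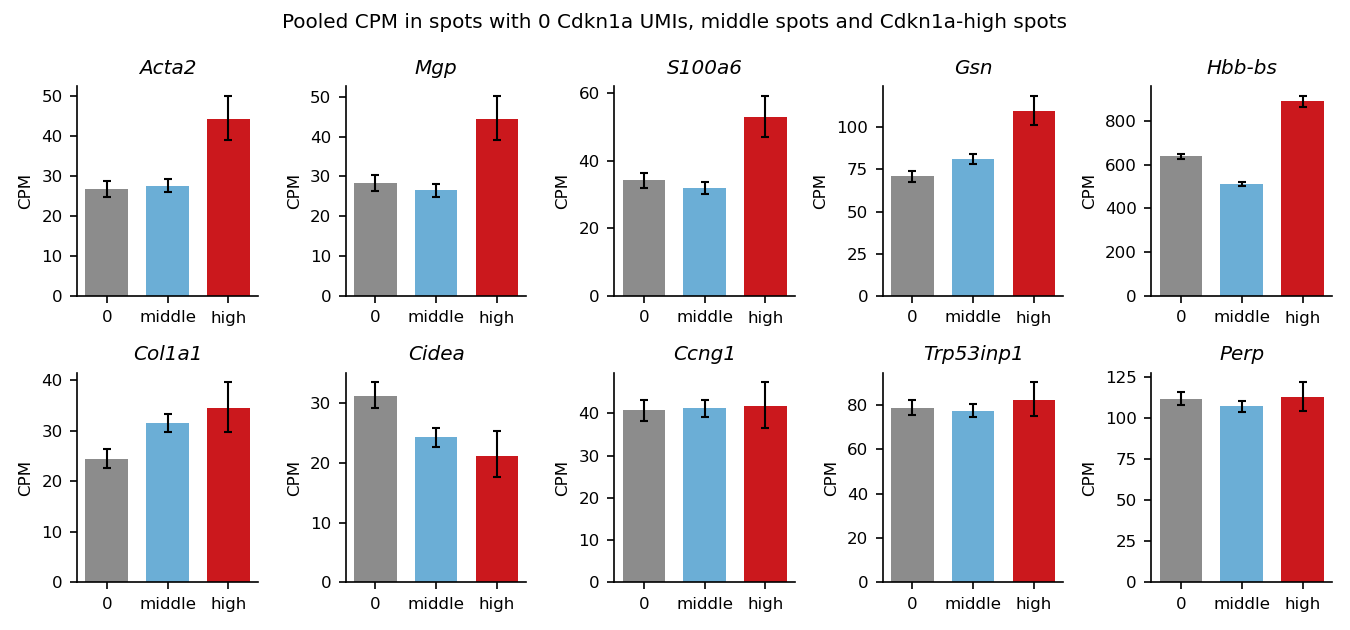
Bars start at 0 and give the pooled CPM of 10 genes in spots with 0 Cdkn1a UMIs (grey, 1522 spots), middle spots (blue, 1600 spots) and Cdkn1a-high spots (red, 347 spots), with exact 95% intervals. Acta2, Mgp, S100a6, Gsn and Hbb-bs are highest in the high spots, while their middle spots lie near the spots with 0 (27.6 against 26.7 CPM for Acta2) or, for Hbb-bs, below them. Cidea is lowest in the high spots, and the p53 targets Ccng1, Trp53inp1 and Perp are level.

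On the lower side the leading gene was Cidea, a lipid droplet protein that fuses droplets into larger ones and that steatotic hepatocytes express. It stood at 21.2 CPM from 123 UMIs in Cdkn1a-high spots, 24.2 CPM in middle spots and 31.2 CPM in spots with 0 (-0.56, -0.84 to -0.28). It was found in 27.4% of high spots and 35.0% of spots with 0, no high spot had more than 3 of its UMIs, and the ratio was -0.52 without the 10% of spots richest in other cell types. Thinned to 5000 UMIs at random it was -0.26 (-0.74 to 0.18) in one draw and -0.62 (-1.13 to -0.14) in another. On molecules not used for the choice Cidea had -0.31 (-0.70 to 0.07). The other lipid droplet genes did not follow it: the list of 14 had 0.00 (-0.02 to 0.03), with the droplet coat gene Plin2 at 0.02 (-0.03 to 0.07), the steatosis-linked Hsd17b13 at 0.02 (-0.03 to 0.06), the lipolysis inhibitor G0s2 at -0.05 (-0.13 to 0.02) and Cideb at 0.08 (0.00 to 0.16).

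The next lowest ratios belonged to genes of low level that were in none of the lists. They included Pigx, of GPI anchor synthesis (13.1 and 19.0 CPM, -0.54, -0.91 to -0.19), and Clec14a, an endothelial lectin (15.5 and 21.5 CPM, -0.47, -0.81 to -0.15). The others were Fam50a (-0.50), Usf3 (-0.47), Nmrk1 (-0.44), Mzt2 (-0.44), Mcmbp (-0.44), Inca1 (-0.40), Rnf6 (-0.39), Msl3 (-0.38), Hnrnpll (-0.38), C1galt1c1 (-0.38), Nrbp2 (-0.38) and Colec10 (-0.38). Thinning left few UMIs of these genes, and the values moved with the random draw. Pigx had -1.09 (-1.93 to -0.34) with seed 1 and -0.53 (-1.25 to 0.13) with seed 2, and Usf3 had -0.81 (-1.60 to -0.09) and -0.18 (-0.86 to 0.45). Mcmbp had -0.15 (-0.84 to 0.48) and -1.09 (-1.88 to -0.39). On molecules not used for the choice Pigx had -0.42 (-0.92 to 0.05) and Clec14a -0.14 (-0.58 to 0.27). Among these genes only Usf3 had an interval clear of 0 there (-0.63, -1.25 to -0.08). A kept direction on those molecules was part of the rule that named them.

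The zonal genes of hepatocytes differed slightly. Around the central vein hepatocytes make glutamine and carry cytochromes, and around the portal tract they make urea and glucose. The 12 pericentral genes stood at 7341 CPM in high spots, 7864 CPM in spots with 0 and 6510 CPM in middle spots (-0.10, -0.11 to -0.08), and none of the 11 tested members had a ratio above 0, but on molecules not used to choose the spots the list had 0.03 (0.01 to 0.05). Glul, glutamine synthetase, had -0.16 (-0.22 to -0.10), Oat, ornithine aminotransferase, -0.16 (-0.20 to -0.12), and the cytochrome gene Cyp2e1 -0.09 (-0.10 to -0.07). Tbx3, a Wnt-driven transcription factor gene with 23 UMIs in high spots, was past the fold (-0.93, -1.62 to -0.30). The 14 periportal genes had -0.03 (-0.04 to -0.01). In 5 classes of spots ordered by the pericentral share of zonal UMIs, Cdkn1a lay between 42.3 CPM (38.9 to 46.0) in the most pericentral class and 49.6 CPM (45.7 to 53.7) in the middle one.

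Cytochromes that are female-biased or induced by xenobiotics had -0.14 (-0.19 to -0.10), with 0 of 8 tested members past the fold and Cyp2c29 at -0.19 (-0.27 to -0.11) and Cyp2a5 at -0.17 (-0.25 to -0.09), and the list had -0.02 (-0.08 to 0.04) on molecules not used for the choice. Lipogenesis and PPAR-alpha targets had -0.05 and -0.05, cholesterol synthesis -0.02 and the acute phase 0.04, each with 0 members past the fold. Glucocorticoid and FoxO targets had 0.03 and male-biased genes 0.05, the latter with the major urinary protein gene Mup20 at 0.09 (0.08 to 0.11) and 1 member past the fold downward, Mup1 (-0.43, -0.80 to -0.08), whose family shares near-identical sequence. On molecules not used for the choice lipogenesis had 0.01 (-0.01 to 0.03), PPAR-alpha targets -0.02 (-0.04 to 0.00), the acute phase -0.00 (-0.02 to 0.01), glucocorticoid and FoxO targets -0.01 (-0.04 to 0.03) and the male-biased list turned to -0.05 (-0.07 to -0.04). In the list of Nrf2 targets 1 of 11 tested members was past the fold downward, beside 0.943% of all tested genes. That member was the glutathione transferase gene Gsta2 (-0.34, -0.58 to -0.10).

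Among the genes with at least 1000 UMIs that were past the fold, 8 are named above as higher. The other 4, named here after their values were seen, were the liver transcription factor gene Zbtb20 (0.47, 0.25 to 0.67), Depp1, a FoxO-induced gene (0.40, 0.20 to 0.59), the actin cross-linker gene Flna (0.38, 0.17 to 0.59) and Tmem9b (0.35, 0.13 to 0.56). The lower ones were Gsta2, the ubiquitin-conjugating enzyme gene Ube2e3 (-0.36, -0.61 to -0.11) and AU022252 (-0.37, -0.60 to -0.15). Thinned ratios of Zbtb20, Depp1 and Tmem9b were 0.40, 0.33 and 0.40, and that of Flna was 0.16.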

How the data were processed

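The deposited values are UMI counts for each gene in each spot, made by the authors with Space Ranger 1.3.1 (per the file headers), with mm10 named in the submitters' processing notes, and not normalized. The files list 32285 genes. No per-sample column was left unused (0). Spot positions and images were not used here, so neighbouring spots were not compared.

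Spots of the HFD section with at least 5000 UMIs were ranked by Cdkn1a UMIs over total UMIs, and the top 10% (ties by file order) were compared with spots without a Cdkn1a UMI. UMIs were summed per group and divided by all UMIs (CPM). Ratios have exact conditional binomial intervals, sums exact Poisson intervals and shares Clopper-Pearson intervals, at the 95% level. A gene past the fold had at least 200 UMIs, a log2 ratio of at least 0.32 either way and an interval clear of 0. UMIs from 1 slide are not independent of each other between neighbouring spots, and the precision stated is that of counting alone. Named are the 15 genes of highest and the 15 of lowest ratio that had 500 or more UMIs in all and kept their direction after thinning (seed 1) and on molecules not used for the choice, the p53 targets with at least 200 UMIs, and of each other list members with the most UMIs and those past the fold; 1 gene of the highest is not reported here. The members, the 36 lists and the rules were chosen with earlier results of these data known. Depth, share of spots, comparison spots, weighting, zone, total, other cell types and globin were varied. Versions were scipy 1.17.1 and numpy 2.4.6 for the intervals and thinning, pandas 2.3.3 for tables and matplotlib 3.10.9 for plots, under Python 3.11.15, with seeds 1 and 2, and the calls were tested on simulated counts. The position of Cdkn1a is from GENCODE on GRCm38.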

Additional observations from a re-analysis of the deposited data

How the results depend on the processing

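No paired analysis was possible because there is 1 section per diet. The p53 targets lay between -0.0044 and 0.050 (log2) in every setting run, all inside the interval of the value with all UMIs. The number of genes past the fold upward, 219 with all UMIs, was 98 and 88 after thinning with seeds 1 and 2, 112 with spots chosen again after thinning, 134 on molecules not used for the choice, 143 without the 10% of spots richest in other cell types, 112 for middle spots against spots with 0, 32 at a fold of 1.5, and 367 and 12 with at least 50 and 1000 UMIs per gene. The number downward, 76 with all UMIs, was 47 with the top 20% of spots, 41 after thinning (seed 1), 18 at a fold of 1.5 and 3 with at least 1000 UMIs. The number of genes tested differed among settings. With all UMIs 2.72% of 8058 tested genes were past the fold upward, against 2.36% of 4145 after thinning (seed 1). The share was 1.90% of 7066 on molecules not used for the choice and 1.86% of 7669 without the 10% of spots richest in other cell types. For middle spots 9845 genes were tested. Downward the share was 0.943% with all UMIs and 0.989% after thinning (seed 1). The epithelial injury genes, at 0.18, had 0.13 with the top 20%, 0.13 against all other spots, 0.086 for middle spots, 0.12 after thinning (seed 1), 0.032 with spots chosen again, 0.071 on molecules not used for the choice and 0.14 without the 10% of spots richest in other cell types. Markers of cells other than hepatocytes, at 0.13, had 0.071 with the top 20%, 0.014 for middle spots, 0.083 with spots chosen again, 0.043 on molecules not used for the choice and 0.0081 without the 10% richest in them. In the other settings these 5 results stayed within their interval or, for counts, within 1.5 times.

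For middle spots against spots with 0 the sign turned for smooth muscle (-0.099), red blood cell genes (-0.33), Ccl21a (-0.58), Myl9 (-0.12), Mgp (-0.094), S100a6 (-0.097), Hba-a2 (-0.34), Hba-a1 (-0.40), Ppara (-0.17), Tagln (-0.016), Hbb-bs (-0.32), Hbb-bt (-0.33), Inca1 (0.013), Rnf6 (0.17) and Hnrnpll (0.019). With spots chosen again after thinning it turned for Ppara (-0.49), Col1a1 (-0.22), Hbb-bt (-0.014), Nmrk1 (0.28) and Hnrnpll (0.054), and without the 10% of spots richest in other cell types for S100a6 (-0.084). The cause was not tested. The rule could not be applied to the NCD section as planned. Settings chosen after seeing the data included the comparison in that section. There 122 (1.83%) of 6654 tested genes were past the fold upward and 170 (2.55%) downward, with injury genes at 0.019 and other cells at 0.030. The others were high spots with at least 2 Cdkn1a UMIs and 3 kinds of removal. Left out were the 10% of spots richest in globin (Hbb-bt -0.021), single spots, and the 1% of spots with the most UMIs of a gene or list. Of 540 values of the 30 named genes, 412 stayed within the interval, 108 moved outside it and 20 turned sign. The rule that named these genes fixed their sign after thinning (seed 1) and on molecules not used for the choice. In those settings no sign could turn.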

Other observations

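In the NCD section 52 spots with at least 5000 UMIs held a Cdkn1a UMI, each a single one, and 1643 held none, so the highest 10% (170 spots) could not be ranked. The 52 spots were deeper, at a median of 21207.5 UMIs against 11995. Compared with the spots without Cdkn1a, they had a log2 ratio of -0.00 (-0.16 to 0.14) for p53 targets, 0.02 (-0.12 to 0.15) for epithelial injury genes and -0.14 (-0.78 to 0.43) for smooth muscle genes. Red blood cell genes had -0.28 (-0.32 to -0.25), opposite to the HFD section, and the difference between the sections was not tested. Ccl21a was again high, at 2.03 (1.56 to 2.47) from 49 UMIs, and B cell markers had 1.21 (0.85 to 1.55) from 75 UMIs.

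Lymphoid and myeloid markers were rare in the Cdkn1a-high spots of the HFD section, and no neutrophil, monocyte, dendritic cell, NK cell, B cell or T cell marker reached 200 UMIs over both groups. Neutrophil markers (S100a8, S100a9 and Csf3r) had 90 UMIs in high spots and a log2 ratio of 0.37 (0.01 to 0.71), and when the 1% of each group's spots that were richest in them were left out it was 0.09 (-0.35 to 0.52). T cell markers had 34 UMIs and a ratio of 0.05 (-0.53 to 0.60), and B cell markers 41 UMIs and -0.21 (-0.73 to 0.27).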
